A study of Mus musculus with 12 samples.

Results

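CpG sites with T directly before and A directly after the CpG, here called TCGA sites, were examined for the methylation that DNMT3A, DNMT3B and 3 DNMT3B mutants placed on them in cells. The sites were chosen from the mm10 forward-strand sequence alone. An autosomal CpG was included if its flanks were T and A and if the 100 bp on each side held 5 or fewer CpG sites, itself included. The rule was met by 1128150 sites, which is 7.16% of the 15761875 autosomal CpG sites of that density and part of 21867550 CpG sites in all. TCGA is its own reverse complement, so T precedes and A follows the CpG on both strands. The data are enhanced reduced representation bisulfite sequencing (eRRBS) of 12 mouse ES cell lines, 2 independently derived lines in each of 6 groups. All lines lack Dnmt1, Dnmt3a and Dnmt3b (TKO), carry a stably transfected pPyCAGIZ construct and were selected in 50 µg/ml Zeocin, followed by growth in 25 µg/ml. The groups expressed human DNMT3A, human DNMT3B (WT set a), DNMT3B N656I, a further set of WT DNMT3B lines (WT set b), DNMT3B K777A or DNMT3B N779A. DNMT3A and N656I were compared with WT set a, and K777A and N779A with WT set b, as the library names group them. The study derived both pooled and single-cell-derived lines, and the labels do not say which kind a library came from. A TKO line without enzyme was not analysed here, so levels are given without a subtracted background. The expression of the constructs and of ES cell markers is not measured by this assay.

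DNMT3A and DNMT3B are the de novo methyltransferases, which methylate cytosine in unmethylated DNA, mostly at CpG sites. DNMT1 is the maintenance enzyme that copies methylation to the new strand after replication, so that without it a mark must be placed again on each new strand. The bases around a CpG affect how readily either enzyme methylates it. N656 lies in the catalytic core of DNMT3B, and K777 and N779 lie in its target recognition domain, the part that reads the DNA around the target base. The satellite II (SatII) repeat, which is hypomethylated in patients with DNMT3B mutations, has a CpG of the TCGA type.

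The classes of TCGA sites that the results turn on are given with 2 further bases on either side, 5′ to 3′, with the shared TCGA in capitals. A class also holds the sites that read this way on the other strand. The SatII sequence, the classes with the lowest methylation in DNMT3A and in WT DNMT3B, and those that changed most in a comparison are shown because they differ in the lower-case bases only. The class named highest in WT set a rests on as few as 35 sites in a line and had levels of 26.2% and 44.05% in the 2 lines, and in the first of these gtTCGAac was highest, at 35.5%. The class named lowest in WT set a was at 18.2% in both lines, but in the second line cgTCGAtc was lower, at 12.3%. The class named highest in DNMT3A has the highest mean, whereas in the first line gcTCGAaa was highest, at 48.9%.
SatII class: atTCGAtg
lowest in DNMT3A: aaTCGAtt
highest in DNMT3A: gcTCGAga
lowest in WT set a: ggTCGAcc
highest in WT set a: cgTCGAaa
lowest change in DNMT3A against WT set a: caTCGAtg
lowest change in N656I: aaTCGAtg
the third lowest change in N656I: aaTCGAag
highest change in N656I: acTCGAga
the second highest change in N656I: ccTCGAga
lowest change in K777A: acTCGAgc
the third lowest change in K777A: gcTCGAgc
the only class called higher in K777A: ctTCGAaa
lowest change in N779A: cgTCGAca
the second lowest change in N779A: cgTCGAag
the third lowest change in N779A: agTCGAcg

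Of the single sites that were not on an autosome left out of this choice (named with the methods) and not among the very deep ones (above 117 reads summed over the lines), the 6 with at least 10 reads in the most lines are shown as they stand on the forward strand of mm10. They show what a member looks like in the genome. Each had at least 10 reads in 7 lines, and the limit of 117 reads left out every site with 10 reads in all 12 lines, so that their low depth follows from how they were chosen. Site 1 lies in an exon, within the bounds of both Rnf150 and the antisense gene Gm45449. Which gene that exon belongs to was not determined. Site 2 lies in an intron of Itfg1 and site 5 in an intron of Arhgef7. Sites 3, 4 and 6 are intergenic, and sites 2, 3 and 6 lie in soft-masked (repeat) sequence.
site 1, chr8:83085280-83085309: aatgcattcctatTCGAtggtagagagcaa
site 2, chr8:85822609-85822638: tctagctagaactTCGAgtattatattgaa
site 3, chr1:180716696-180716725: aaaaaggaatagaTCGAtgagaaagagaga
site 4, chr5:15043322-15043351: ttgaagctcaaaaTCGAggataaaaatcaa
site 5, chr8:11809466-11809495: ctccagagtatttTCGAtgtgagagttaat
site 6, chr8:20535144-20535173: cacttgatcatgaTCGAtgattgttttgat

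Each line had between 745231 and 1733572 reads on TCGA sites, and these covered between 3.97% and 48.1% of the sites. A covered site had between 2.27 and 17.04 reads on average, and 1499 to 31049 sites per line had at least 10 reads. Of all TCGA sites, 358367 had no read in any line and 1960 had a read in all 12 lines. The second library of WT set a stood apart, with 44798 covered sites at 17.04 reads each. Of its sites with at least 10 reads, 67.9% were at 0% methylation and 23.0% at 80% or more. Reads carry no molecular identifiers, so counting intervals would understate the error, and the error given is the SD between the 2 lines of a group. The level of a line is the mean, over its covered TCGA sites, of methylated reads divided by all reads. With 2 lines against 2, an exact permutation test cannot give a two-sided p below 0.33.

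TCGA sites were methylated most by DNMT3A and least by DNMT3B K777A. The 2 lines with DNMT3A had levels of 31.7% and 31.5%, against 27.0% and 25.0% for WT set a. The N656I lines had 23.7% and 18.2%, and the lines of WT set b had 22.7% and 20.8%. In the N779A lines the level was 11.7% and 13.2%, and in the K777A lines it was 7.91% and 9.13%. The lines of each mutant lay apart from those of their WT set, although the N656I lines differed from each other by more than the lines of any other group. On sites with at least 10 reads, the levels ranged from 8.83% to 33.3%. All CpG sites of the same density gave the same order of group means but with other distances, at 40.5% ± 0.101 in DNMT3A, 18.01% ± 0.704 in WT set a, 14.3% ± 2.64 in N656I, 14.9% ± 0.904 in WT set b, 7.97% ± 0.760 in K777A and 13.4% ± 1.32 in N779A (SD, n = 2). In DNMT3A lines, TCGA sites thus lay below the average CpG of their density, with a ratio of 0.781 and 0.777. In the 6 lines with WT DNMT3B or N656I, they lay above it, with ratios from 1.43 to 1.47. The ratios were 1.06 and 1.07 in K777A and 0.946 and 0.926 in N779A.

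**Figure D1:**
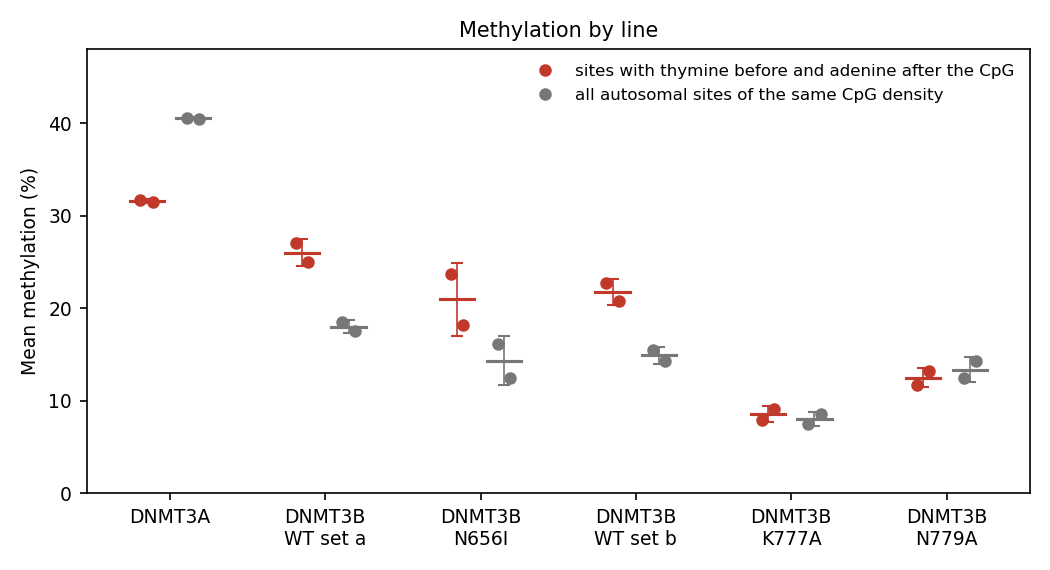
Mean methylation in percent (y axis) for each of the 6 groups (x axis), for TCGA sites (red) and for all autosomal CpG sites of the same density (grey). Points are the 2 lines, the horizontal bars their mean and the whiskers the SD. Red lies below grey in DNMT3A (31.6% against 40.5%) and above it in WT DNMT3B and N656I.

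The bases directly next to the CpG give 10 classes once both strands are merged. In both DNMT3A lines, TCGA had the lowest level of the 10, followed by CCGA at 37.1% ± 0.0693, while GCGC was at 49.4% ± 0.0333 (SD, n = 2). The levels of TCGA in WT set a (26.0% ± 1.46) and WT set b (21.8% ± 1.39) came next to those of CCGG (27.0% ± 1.47 and 23.0% ± 1.24) and CCGA (25.1% ± 1.36 and 21.5% ± 1.46). The 3 classes lay close together, with CCGG above TCGA and TCGA above CCGA in each of the 4 WT lines. The next class, ACGG, was at 18.2% ± 0.720 in WT set a. In N656I, CCGG (26.1% ± 4.35) and CCGA (24.3% ± 4.29) had higher means than TCGA (20.9% ± 3.93), and both were above TCGA in either line. In K777A the 3 classes lay apart. TCGA was at 8.52% ± 0.868, CCGA at 4.04% ± 0.246 and CCGG at 2.06% ± 0.0207. In N779A, the order of these 3 was CCGG at 21.1% ± 2.29, CCGA at 16.03% ± 1.23 and TCGA at 12.5% ± 1.05. These levels are means over different sites, and the CCGG sites are also the cut sites of MspI, 1 of the 3 enzymes used to make the libraries.

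**Figure D2:**
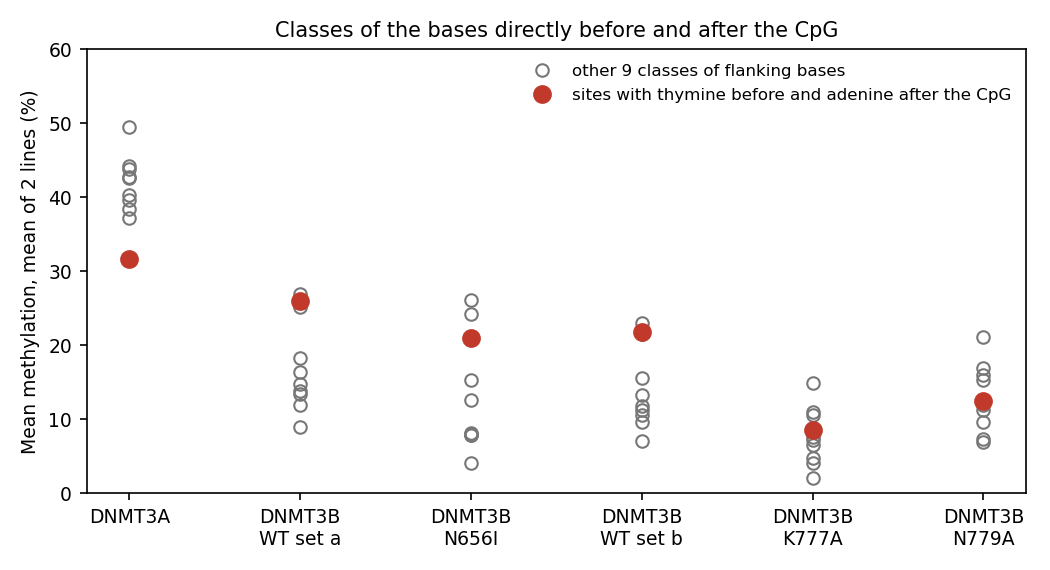
Mean methylation in percent (y axis, mean of 2 lines) of the 10 classes of bases next to the CpG in the 6 groups (x axis). The filled point, TCGA, is the lowest class in DNMT3A (31.6%), lies among the top 3 in WT DNMT3B and N656I, and lies in the middle of the classes in K777A and N779A.

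DNMT3A and WT set a differed less in level at TCGA sites than over all CpG sites of the same density. The TCGA level was 5.58 percentage points higher in DNMT3A (31.6% ± 0.184 against 26.0% ± 1.46, SD, n = 2; exact permutation test, p = 0.33, two-sided, the lowest this design allows). Relative to all CpG sites of the same density, the log2 odds of methylation at TCGA sites were −0.56 ± 0.01 in DNMT3A and 0.68 ± 0.04 in WT set a, a difference of −1.24 (p = 0.33, exact permutation test). Such a relative value takes out how much a line was methylated as a whole. The 6 bases around a CpG, merged over both strands, were then used to form classes, and the log2 odds of each class, centred on the median class of its line, were compared with limma (Benjamini-Hochberg adjusted p below 0.05). All 134 TCGA classes that could be tested were lower in DNMT3A than in WT set a, with a median log2 change of −1.46 against 0.04 over all 2022 classes. The other 2 TCGA classes had fewer than 20 covered sites in at least 1 line. Of all classes tested, 72.5% were called, 36.0% lower and 36.5% higher. A quasi-binomial regression on summed reads called 92 of the 134 TCGA classes lower and 0 higher. The share of all classes that it called is not given here. The changes of the TCGA classes ran from −3.19 for caTCGAtg (SE 0.07, adjusted p = 1.56e-08) to −0.50. Sites of the class caTCGAtg had levels of 14.4% and 13.7% with DNMT3A, against 29.7% and 29.9% for WT set a. The class aaTCGAtt had the lowest level in DNMT3A, 12.1% and 11.8%, against 26.8% and 22.3% in WT set a. At the other end, gcTCGAga reached 48.6% and 48.3% in the DNMT3A lines, with 29.5% and 30.3% in WT set a. The SatII class, atTCGAtg, was at 22.3% in both DNMT3A lines and at 24.5% and 19.97% in WT set a, and its log2 change was −1.81 (SE 0.10, limma). Without centring, when the overall level of a line counts, the median change of all classes was 1.85. In that fit 59 TCGA classes were called higher and 13 lower in DNMT3A, and the share of all classes called is not given here.

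**Figure D3:**
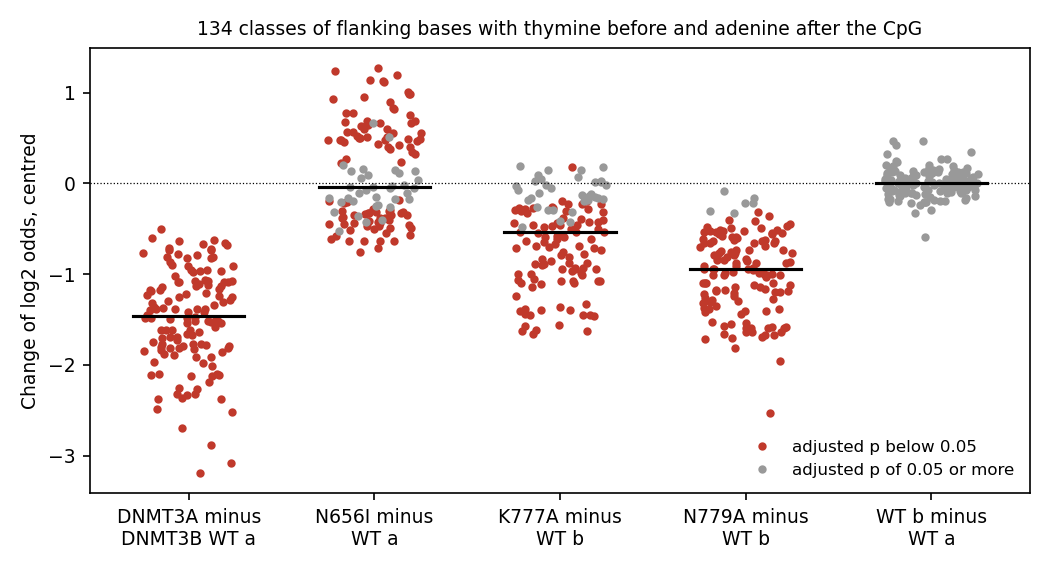
Change of the centred log2 odds (y axis) of the 134 tested TCGA classes in the 5 comparisons (x axis). Each point is a class, red if its limma adjusted p was below 0.05 and grey otherwise, and the bar is the median. All points are below 0 for DNMT3A against WT set a, they fall on both sides of 0 for N656I, and none is called between the 2 WT sets.

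Within TCGA sites, the base before the T is 2 positions before the CpG (−2) and the base before that is 3 positions before it (−3). Each site was read on both strands, which gives it a −2 and a −3 base on each strand. The −2 and −3 bases of 1 strand are the complements of the bases 2 and 3 positions after the CpG on the other. An effect named for −2 or −3 can therefore not be told apart from an effect of the complementary base after the CpG. The effect of a base is the log2 odds of the mean level of the sites with this base minus those of all TCGA sites of the line. The 4 effects at a position depend on each other, because a higher level with 1 base lowers the others. The 8 effects of TCGA sites were tested with limma together with those of the other 9 classes, against 0 and between groups. Against 0, 96.9% of all these effects were called in DNMT3A, 88.3% in WT set a, 91.4% in WT set b, 95.3% in N656I, 96.1% in K777A and 91.4% in N779A. Whether an effect is called therefore says little, and its size and sign are given.

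In WT DNMT3B, the level of a TCGA site varied little with its −2 base. With A, C, G or T at −2, the level was 26.6% ± 2.04, 26.3% ± 0.906, 25.1% ± 1.86 and 25.7% ± 1.32 in WT set a, and 22.2% ± 1.59, 22.3% ± 1.28, 20.8% ± 1.47 and 21.4% ± 1.31 in WT set b (SD, n = 2). The effects spanned 0.12 log2 units in either set, from −0.07 for G to 0.05 for A in WT set a. By the same measure, the −2 base spanned 1.06 at ACGT sites, 0.64 at CCGG sites and 0.50 at GCGC sites of WT set a. At −3, A was lower in both WT sets, with an effect of −0.18 (SE 0.01, adjusted p = 6.02e-10) and −0.19 (SE 0.01, adjusted p = 2.67e-10), and G had the highest effect, 0.09 and 0.12. A at −3 was also lowest at ACGT (−0.19), CCGG (−0.25) and GCGC sites (−0.16) of WT set a. Between the WT sets, none of the 8 effects differed (adjusted p from 0.21 to 0.74, limma), and 1 had an unadjusted p below 0.05. Of the effects of all 10 classes, 8.59% were called between the WT sets.

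DNMT3A, in contrast, methylated TCGA sites with A at −2 less than those with C or T there. The level with A at −2 was 25.0% ± 0.239, against 35.7% ± 0.0736 with C, 34.5% ± 0.161 with T and 28.9% ± 0.295 with G (SD, n = 2). A thus had an effect of −0.47 and G of −0.19, whereas C had 0.26 and T 0.19. All of these differed from WT set a, by −0.52 (SE 0.02, adjusted p = 1.40e-11) for A and by 0.24 (SE 0.02, adjusted p = 6.14e-09) for C. In DNMT3A, A at −2 was also lowest at ACGT (−0.44) and CCGG sites (−0.14), whereas at GCGC sites C was lowest (−0.24). At −3 of TCGA sites, the effects of DNMT3A were −0.29 for A and −0.20 for C, and 0.24 for G and 0.26 for T. C at −3 was thus below the average TCGA site in DNMT3A and above it in WT set a, where its effect was 0.05, with a difference of −0.25 (SE 0.01, adjusted p = 1.30e-10). All 8 effects were called different between DNMT3A and WT set a, against 89.8% of the effects of all 10 classes. On sites with at least 10 reads 6 were called, and G at −2 (adjusted p = 0.092) and A at −3 (adjusted p = 0.084) were not.

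In DNMT3B N656I, the level of TCGA sites was split by the −2 base. Their level was 20.9% ± 3.93 against 26.0% ± 1.46 in WT set a (SD, n = 2; exact permutation test, p = 0.33). The difference of −5.06 percentage points was −7.85 without the first N656I line, −2.28 without the second and −2.94 against all 4 WT lines. The level relative to all CpG sites was 0.67 ± 0.03 in N656I and 0.68 ± 0.04 in WT set a, a difference of −0.01 (exact permutation p = 0.67), less than the spread between lines. It turned to 0.0853 without sites within 20 bp of a cut (exact permutation p = 0.33), where the lines of the groups did not overlap, and to 0.24 on the sites farther than 100 bp from a cut, where the lines of WT set a were apart (0.78 and 0.26) and overlapped with those of N656I (0.79 and 0.74). Among the 134 TCGA classes, 53 were called higher and 46 lower, with a median change of −0.04, against 33.4% higher and 30.8% lower over all classes (64.2% called). A quasi-binomial regression on summed reads called 0 higher and 0 lower, and without centring 6 were higher and 74 lower. For neither fit is the share of all classes called given here. With C at −2, the level was 27.4% ± 4.81, whereas it was 17.4% ± 3.40 with A, 18.5% ± 3.58 with G and 18.7% ± 3.75 with T. Although the 2 lines differed in level, the effect of C at −2 was 0.52 in 1 line and 0.51 in the other. It exceeded that of WT set a by 0.49 (SE 0.02, adjusted p = 3.44e-12), and that of A was lower by −0.38 (SE 0.02, adjusted p = 4.43e-11). All 8 effects were called different, against 78.9% of the effects of all 10 classes, but only 5 on sites with at least 10 reads, where A, C and G at −3 were not called (adjusted p = 0.14, 0.33 and 0.21). The differences at −3 were small, from −0.09 for A to 0.07 for T, and the one for C, −0.03 (SE 0.01, adjusted p = 0.041), passed the threshold narrowly and was not called in the fit of the 4 lines alone (adjusted p = 0.24). The 3 TCGA classes with the largest rise had C at −2 on both strands. They were acTCGAga (1.27, SE 0.06), ccTCGAga (1.24, SE 0.07) and gcTCGAga (1.19, SE 0.08). Sites of the class acTCGAga were at 38.4% and 29.8% in the N656I lines and at 25.3% and 24.1% in WT set a. The 3 largest falls were at aaTCGAtg (−0.76, SE 0.08), caTCGAtg (−0.71, SE 0.07) and aaTCGAag (−0.64, SE 0.08). The first of these was at 14.03% and 10.2% in N656I and at 27.8% and 24.4% in WT set a. The SatII class, with A at −2 on 1 strand and T on the other, was at 14.2% and 11.4% in N656I, with a log2 change of −0.34 (SE 0.10, adjusted p = 0.0176).

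**Figure D4:**
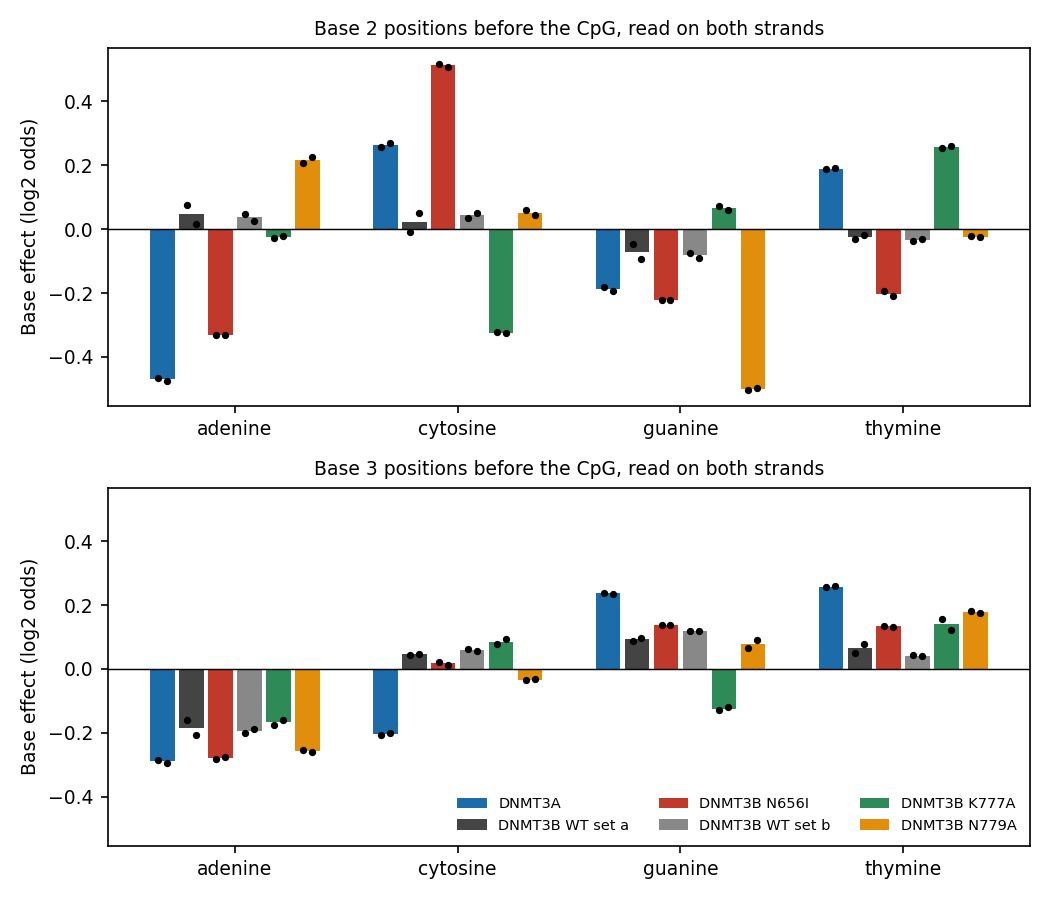
Effect of the base 2 (top) and 3 positions (bottom) before the CpG on the methylation of TCGA sites in log2 odds (y axis), for each base (x axis) and group (colour). Bars are means of 2 lines and points the lines. The bars of both WT sets are short at position 2, from −0.08 to 0.05, while C is high in N656I (0.51) and low in K777A (−0.32), G is low in N779A (−0.50) and A is low in DNMT3A (−0.47).

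DNMT3B K777A methylated TCGA sites with C at −2 less than those with other bases there, whereas WT set b had hardly any effect of C. The TCGA level was 13.2 percentage points lower than in WT set b (8.52% ± 0.868 against 21.8% ± 1.39, SD, n = 2; exact permutation test, p = 0.33). Relative to all CpG sites of the same density, TCGA sites moved from 0.67 ± 0.02 to 0.10 ± 0.01, a difference of −0.56. Of the 134 TCGA classes, 98 were called lower and 1 higher, with a median change of −0.53 against 0.17 over all classes. Of all classes, 79.9% were called, 36.3% lower and 43.6% higher. With C at −2, the level was 6.93% ± 0.715, and with T it was 10.0% ± 1.02. The effect of C was −0.32, against 0.04 in WT set b, a difference of −0.37 (SE 0.02, adjusted p = 4.89e-11). That of T was 0.26 against −0.03, a difference of 0.29 (SE 0.01, adjusted p = 1.44e-11), and that of G was 0.07 against −0.08. On sites with at least 10 reads the effect of T in WT set b was 0.0052 and that of G in K777A −0.0073, neither called against 0. In K777A, T at −2 also had the highest effect at ACGT (0.42), CCGG (0.57) and GCGC sites (0.39), where C had −0.02, −0.15 and 0.06. At −3 of TCGA sites, G changed sign, from 0.12 in WT set b to −0.12 in K777A (difference −0.24, SE 0.01, adjusted p = 1.35e-10). The differences for A and C at −3 did not pass the threshold (0.03 for both, SE 0.01, adjusted p = 0.0925 and 0.0522), although that for C was called on sites with at least 10 reads (adjusted p = 0.0065) and without repeats (adjusted p = 0.00055). In all, 6 of the 8 effects were called, against 91.4% of the effects of all 10 classes. With at least 10 reads 5 were called, so that some of these 6 lost the call there although C at −3 gained it. The class acTCGAgc fell most, by 1.66 on the log2 scale (SE 0.08, adjusted p = 6.11e-08), from 22.5% and 18.5% in WT set b to 3.51% and 4.24% in K777A. It was followed by gcTCGAga (−1.63, SE 0.08) and gcTCGAgc (−1.63, SE 0.08). All 3 have C at −2 on both strands. The only class called higher, ctTCGAaa, has T at −2 on both strands, with a change of 0.18 (SE 0.06, adjusted p = 0.0294); it was not called under several other settings. Its level was 12.7% and 15.3% in K777A and 23.9% and 21.1% in WT set b, so that its rise is relative to the median class. The SatII class was at 8.71% and 10.3% in the K777A lines and at 19.8% and 19.0% in WT set b, and its change of −0.18 (SE 0.10, adjusted p = 0.13) was not called.

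DNMT3B N779A lowered TCGA sites most where G stood at −2. The TCGA level was 9.27 percentage points lower than in WT set b (12.5% ± 1.05 against 21.8% ± 1.39, SD, n = 2; exact permutation test, p = 0.33), although all CpG sites of the same density differed by less, with 13.4% ± 1.32 against 14.9% ± 0.904. The relative level moved from 0.67 ± 0.02 to −0.11 ± 0.03, a difference of −0.78. All but 6 of the 134 TCGA classes were called lower and 0 higher, with a median change of −0.94, against 0.00 over all classes, of which 54.1% were called, 30.3% lower and 23.8% higher. A quasi-binomial regression called 45 lower and 0 higher, and its share over all classes is not given here. With G at −2, the level was 9.17% ± 0.822, against 14.2% ± 1.28 with A, 12.9% ± 0.992 with C and 12.3% ± 1.02 with T. The effect of G was −0.50, against −0.08 in WT set b, a difference of −0.42 (SE 0.01, adjusted p = 3.91e-11). A at −2 had an effect of 0.22, which was 0.18 above WT set b (SE 0.02, adjusted p = 3.58e-07). No difference was called for C (0.01, SE 0.02, adjusted p = 0.70) or T (0.01, SE 0.01, adjusted p = 0.52). In N779A, G at −2 had an effect of 0.23 at ACGT, −0.17 at CCGG and −0.06 at GCGC sites. At −3 of TCGA sites, T rose by 0.14 (SE 0.01, adjusted p = 6.55e-07) and C fell by 0.09 (SE 0.01, adjusted p = 7.44e-06). In all, 6 of the 8 effects were called, against 74.2% of the effects of all 10 classes. With at least 10 reads 3 were called, and A, C and G at −3 were not (adjusted p = 0.35, 0.095 and 0.078). Without repeats, A and G at −3 lost the call (adjusted p = 0.067 and 0.75). The 3 classes with the largest fall, cgTCGAca (−2.53, SE 0.37), cgTCGAag (−1.96, SE 0.11) and agTCGAcg (−1.81, SE 0.28), all have G at −2 on at least 1 strand and a further CpG in the flank. They had as few as 33 covered sites in a line. The second of them was at 5.75% and 6.10% in N779A and at 22.2% and 21.01% in WT set b. The SatII class was at 8.67% and 9.79% in N779A, and its change of −1.10 (SE 0.10, adjusted p = 5.29e-05) was called lower.

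The WT sets differed in level, and none of the 134 TCGA classes and none of the 8 base effects at TCGA sites was called different between them. The TCGA level was 4.24 percentage points lower in WT set b than in set a, the lines of the sets did not overlap, and the relative levels were 0.67 ± 0.02 and 0.68 ± 0.04 (SD, n = 2). Of all 2022 classes, 0.0% were called by limma, and of the effects of all 10 classes 8.59%. An unadjusted p below 0.05 was found for 12 of the 134 TCGA classes and for 269 of all 2022 classes (limma). Without the first line of WT set a, 10 TCGA classes were called higher and 4 lower, and the share of all classes called in that fit is not given here.

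The −3 and −2 bases together form a dinucleotide, read on both strands, of which there are 16. In DNMT3A, the dinucleotides gc (39.9% ± 0.624), tc (39.4% ± 0.166) and gt (39.1% ± 0.0835) had the highest means, with gc above tc in the first line and tc above gc in the second, and aa had the lowest, 21.3% ± 0.210 (SD, n = 2). These values span 1.87-fold. In N656I the highest was tc, 29.9% ± 5.27, while aa (14.7% ± 2.90) and at (14.9% ± 3.22) had the lowest means, in a different order in the 2 lines. In K777A the order was different, with tt at 11.1% ± 0.981 and ct at 10.98% ± 1.122 at the top by the mean and ac at 5.45% ± 0.656 at the bottom. In the second K777A line cg, with the fewest sites, was highest, at 11.9%. The highest means in N779A were those of ga, 16.2% ± 1.53, and tc, 16.03% ± 0.956, with tc above ga in the first line and ga above tc in the second, and gg was lowest, 7.71% ± 0.899. In WT set a the 16 values lay between 22.1% ± 1.39 (at) and 28.9% ± 1.63 (gt), a span of 1.31-fold, and in WT set b they lay between 17.7% ± 0.667 (at) and 25.0% ± 1.56 (gt). The highest and lowest dinucleotide were thus the same in both WT sets, where gt and the next by the mean, tc (28.0% ± 1.09 and 24.0% ± 1.38), lay close together, with gt above tc in each of the 4 WT lines. In the first line of WT set a, ga (29.5%) and ta (28.9%) were above tc (28.8%), and in the second gc (27.30%) was above tc (27.26%). The span of the 16 dinucleotides was 2.02-fold in N656I, 2.03-fold in K777A and 2.10-fold in N779A.

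Because TCGA is palindromic, a site can have the same −2 base on both strands or a different one on each. The combinations describe the level by the pair of −2 bases, and each pair is a mean over different sites. In DNMT3A, sites with A on both strands were at 19.9% ± 0.0868 and those with C on both at 39.4% ± 0.0187, with 28.4% ± 0.206 for A and C (SD, n = 2). In N656I, C on both strands gave 33.8% ± 5.54, C and A gave 23.5% ± 4.28 and A on both gave 15.6% ± 3.15. In K777A, C on both strands gave 5.02% ± 0.559 and T on both gave 11.7% ± 1.24. G on both strands gave 6.39% ± 0.713 in N779A, and A on both gave 17.04% ± 1.85. In WT set a, all 10 combinations lay between 23.9% ± 2.04 (G and G) and 28.0% ± 2.55 (A and A).

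**Figure D5:**
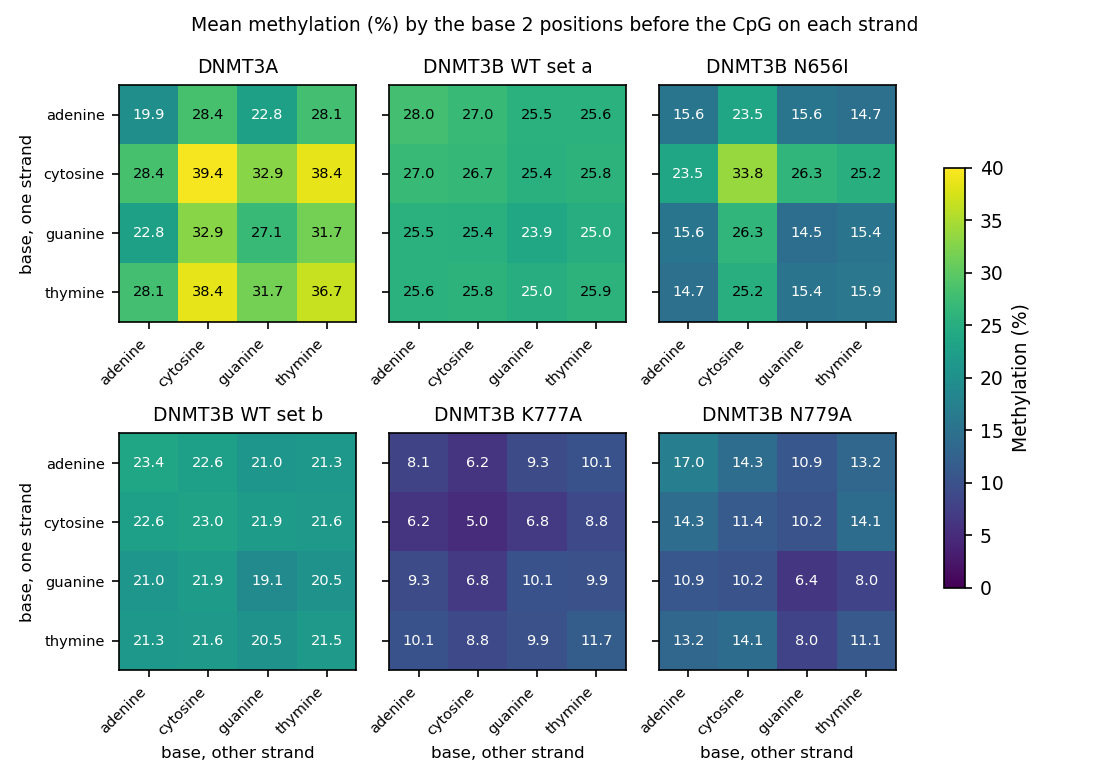
Mean methylation in percent (colour and printed number, mean of 2 lines) of TCGA sites by the base 2 positions before the CpG on the 2 strands (rows and columns, symmetric) in the 6 groups. In WT set a all fields lie between 23.9% and 28.0%, in N656I the fields with C lie between 23.5% and 33.8%, and in N779A the field with G on both strands is at 6.39%.

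The level of sites with different −2 bases was set against the middle of the corresponding sites with the same base. The deviations went both ways, so that their average hides single pairs. In N656I, C and G deviated by 2.33 and 2.00 percentage points, and A and C by −1.23 and −1.14. In WT set a, A and T deviated by −1.24 and −1.43, and in DNMT3A A and C deviated by −1.16 and −1.38. Averaged over the 6 pairs of different bases, the deviation from the middle was −0.39 ± 0.12 percentage points in DNMT3A, −0.37 ± 0.22 in WT set a, 0.17 ± 0.04 in N656I, −0.27 ± 0.24 in WT set b, −0.23 ± 0.10 in K777A and 0.27 ± 0.14 in N779A (SD, n = 2). The largest single deviation, chosen after its value was seen, was that of C and T in N779A, 2.78 and 2.91 percentage points, and it was −0.88 and −0.35 in WT set b. Sites with C and T in N779A were at 14.1% ± 1.04, above C and C (11.4% ± 0.988) and T and T (11.1% ± 0.920). Of the 5 comparisons of the average deviation, the differences were 0.54 percentage points for N656I and 0.54 for N779A, with lines that did not overlap (exact permutation test, p = 0.33 each, Benjamini-Hochberg adjusted p = 0.83). The other 3 lay between −0.02 and 0.11 percentage points.

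The level of TCGA sites also varied with what surrounds them. In DNMT3A it was 28.9% ± 0.162 for the 273452 sites with no other CpG within 100 bp and 33.6% ± 0.354 for the 97962 sites with 5 CpG sites in the window (SD, n = 2). Over the same range it went from 24.5% ± 1.55 to 27.0% ± 1.22 in WT set a and from 7.89% ± 0.620 to 8.76% ± 1.26 in K777A. Just outside the rule, with 6 CpG sites in the window, it was 32.2% ± 0.263 in DNMT3A and 25.8% ± 1.62 in WT set a. By annotation, 6.13% of TCGA sites lay within 1000 bp of a transcription start, 4.07% in exons, 39.8% in introns and 50.0% between genes. Exonic sites were at 34.0% ± 0.505 in DNMT3A and 26.7% ± 1.77 in WT set b, and intergenic sites at 29.8% ± 0.147 and 19.7% ± 1.501. Sites near transcription starts were at 28.4% ± 0.492 and 20.5% ± 0.608. In exons, introns, intergenic sequence and near transcription starts alike, TCGA sites were below all CpG sites of the same density and annotation in DNMT3A and above them in both WT sets. The levels of single autosomes lay between 30.5% and 32.9% in the first DNMT3A line and between 7.402% and 8.24% in the first K777A line.

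The libraries were cut with MspI, BfaI and MseI, and 27.5% of TCGA sites lay within 20 bp of a cut site. In DNMT3A the level was 31.3% ± 0.212 there, 31.9% ± 0.120 at 21 to 100 bp and 28.2% ± 1.42 farther away (SD, n = 2). The level of N779A was 12.3% ± 1.01, 12.6% ± 1.05 and 12.1% ± 1.40 in the same bins. Relative to all CpG sites at the same distance, however, TCGA sites of N779A lay at −0.25 ± 0.02 within 20 bp and at −0.01 ± 0.00 at 21 to 100 bp, while those of K777A lay at 0.23 ± 0.02 and 0.02 ± 0.01. The sites compared with include CCGG, which sits in every MspI cut site, and its part in this shift was not tested. The differences from WT set b were −0.84 and −0.78 for N779A and −0.37 and −0.74 for K777A in these bins. Farther than 100 bp from a cut, N656I differed from WT set a by −1.15 percentage points in level and by 0.24 in relative level, and WT set b by −0.87 and 0.11. The lines of WT set a were at 23.97% and 16.1% there. Soft-masked sequence held 34.9% of TCGA sites and 24.5% of all sites of this density. In DNMT3A, soft-masked TCGA sites were at 32.2% ± 0.383 and the others at 31.4% ± 0.134, and in N779A they were at 13.02% ± 1.117 and 12.3% ± 1.04.

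The 6 single sites shown are given by their reads, without a comparison of groups. At site 1, in Rnf150, 25 of 116 reads were methylated over the 12 lines, with 4 of 11 in the second DNMT3A line (36.4%, 95% Clopper-Pearson interval 10.9% to 69.2%) and 9 of 28 in the second line of WT set a (32.1%, 15.9% to 52.4%). At site 2, in Itfg1, 48 of 113 reads were methylated, with 15 of 15 in the second line of WT set a (95% interval from 78.2% upwards) and 5 of 11 in the first DNMT3A line (45.5%, 16.7% to 76.6%). Site 5, in Arhgef7, had 10 of 11 methylated reads in the first DNMT3A line (90.9%, 58.7% to 99.8%) and 0 of 9 in the second (95% interval up to 33.6%). Sites 3, 4 and 6 had 6 of 109, 9 of 113 and 10 of 112 methylated reads. The intervals cover counting error only. Where a TCGA site was covered by 10 or more reads in each line of its group, Pearson's r across sites between the lines was 0.29 in DNMT3A (2775 sites), 0.12 in WT set a (1395 sites), 0.35 in N656I (5164 sites), 0.16 in WT set b (549 sites), 0.22 in K777A (354 sites) and 0.09 in N779A (244 sites). These values are across sites of the same 2 libraries, and sites are not replicates. Within a library, over the 120 pairs of TCGA contexts and their reverse complements, which should be equal once strands are collapsed, the median difference was 1.18 percentage points in the first DNMT3A line and 0.477 in the first K777A line. It was highest, 2.86 percentage points over 109 pairs, in the second line of WT set a. Pearson's r over these pairs was 0.36 in that line, 0.60 to 0.68 in the other WT lines and 0.82 to 0.97 in the remaining lines.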

How the data were processed

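eRRBS libraries of 12 TKO ES cell lines were made by the authors with MspI, BfaI and MseI. Per the paper's methods and the submitters' processing notes, read pairs were trimmed with Cutadapt (1.12 in the processing notes), aligned with Bismark 0.18.1 and Bowtie 1.2 to mm10, pairs with at least 3 methylated non-CpG cytosines were removed and the strands of a CpG were merged. The authors deposited 2 raw read counts per CpG and line (methylated and total), neither normalized nor pooled. Of the 21867550 positions, 0 failed a check for CG in GRCm38. Non-CpG sites were not used here.

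TCGA sites, the lists and the tests were chosen with earlier results of these data known. A site needed 1 read. Levels, relative levels and flank deviations were compared with exact permutation tests over the 2 lines of each group. Classes (at least 20 covered sites in every line, with 0.5/n added to level and complement, n being the covered sites) and base effects were fitted over all 12 lines with limma 3.58.1 in R 4.3.3 and adjusted by the Benjamini-Hochberg method at 0.05. Class values were centred on the median class of a line. DNMT3A and N656I share WT set a, and K777A and N779A share WT set b, so these comparisons are not independent. The labels number the lines, and these numbers pair nothing: the deviations of first lines from their group means correlated with r between −0.02 and 0.01. Classes were named by a rule: the SatII class, the 3 largest changes called in each direction per comparison and the extremes in DNMT3A and WT set a. The 6 sites were those with at least 10 reads in the most lines, outside chromosome 18, whose sequence is not shown here, and below the depth limit given here. The scripts were tested on simulated data. Alternatives were minimum reads of 5, 10 and 20, summed reads, sites covered in all 4 lines, leaving out very deep sites (over 117 summed reads), sites within 20 bp of a cut or repeats, 1 CpG per window, forward contexts, other class minimums, quasi-binomial regression, the log2 of the level or log2 odds scale, no centring, 4-line fits, a replicate block, all 4 WT lines as reference and leaving out each line. Python 3.11.15, numpy 2.4.6, pandas 2.3.3, scipy 1.17.1 and matplotlib 3.10.9 were used. Locations come from the GRCm38 gene annotation (promoter, within 1000 bp of a transcription start).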

Additional observations from a re-analysis of the deposited data

Results flagged for a closer look

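For 9 effects of single bases at TCGA sites, both groups of a comparison differed from 0 in opposite directions and the difference between them passed the threshold (limma, Benjamini-Hochberg adjusted over the effects of all 10 classes of flanking bases). Between DNMT3A and WT set a, A at −2 had effects of −0.47 and 0.05 (difference −0.52), T at −2 had 0.19 and −0.02 (difference 0.21), and C at −3 had −0.20 and 0.05 (difference −0.25). Between N656I and WT set a, A at −2 had −0.33 and 0.05 (difference −0.38). Between K777A and WT set b, C at −2 had −0.32 and 0.04 (difference −0.37), G at −2 had 0.07 and −0.08 (difference 0.15), T at −2 had 0.26 and −0.03 (difference 0.29), and G at −3 had −0.12 and 0.12 (difference −0.24). Between N779A and WT set b, C at −3 had −0.03 and 0.06 (difference −0.0937). The WT value was 0.05 or closer to 0 in 6 of the 9, so that the opposite sign rests there on a small WT effect. In each of these effects the 2 lines of either group had the same sign. On sites with at least 10 reads, however, T at −2 in WT set b was 0.0052 (adjusted p = 0.875) and G at −2 in K777A was −0.0073 (adjusted p = 0.74), so that the opposite signs were lost for both. At that minimum the WT effects of T at −2 and C at −3 in set a (adjusted p = 0.44 and 0.081) and of C at −2 and C at −3 in set b (adjusted p = 0.087 and 0.16) were not called against 0 either, nor were the effect of C at −3 in N779A (adjusted p = 0.19) and its difference from WT set b (adjusted p = 0.095). Without repeats that effect was −0.00024 (adjusted p = 0.98). With at least 5 reads, T at −2 in WT set b was not called (adjusted p = 0.062). Without the first line of WT set a, its effects of A and T at −2 were not called (adjusted p = 0.15 and 0.13), and without the second line of WT set b, neither was C at −2 (adjusted p = 0.078). G at −3 in K777A and WT set b kept its signs and calls under the alternatives run.

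TCGA sites of the sex chromosomes were left out by the rule. Their reads show methylation as well, with 58430 methylated of 338516 reads at 75005 sites on chromosome X, where the levels of the lines ran from 6.88% to 28.4%. On chromosome Y, 2488 of 22064 reads at 48071 sites were methylated, with levels from 5.35% to 20.5% and as few as 18 covered sites in a line.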

How the results depend on the processing

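The alternatives run for the 5 differences in level kept their direction, though sites over 100 bp from a cut alone gave −1.15 percentage points for N656I and −0.87 for the WT sets. The difference for N656I was −2.94 percentage points against all 4 WT lines and ran from −7.85 to −2.28 when 1 line was left out, the extremes being without N656I replicate 1 and without N656I replicate 2. The relative level of N656I against WT set a, close to 0, changed sign with at least 20 reads (0.0148) and without sites near a cut (0.0853), and ran from −0.0394 to 0.0185 when 1 line was left out. That of the WT sets changed sign with at least 10 reads (2.5e-05) and over sites covered in all 4 lines (0.0048), with −0.0369 to 0.0210 when 1 line was left out.

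Of the counts of TCGA classes, those without centring were 59 higher and 13 lower for DNMT3A, 6 and 74 for N656I, 0 higher for K777A and 1 lower for the WT sets. With at least 10 reads only 9 TCGA classes could be tested, of which 9 were lower for DNMT3A, 4 higher and 0 lower for N656I, 0 higher and 3 lower for K777A and 7 lower for N779A. With at least 5 reads, 28 were lower for N656I and 0 higher for K777A. Of 238 forward contexts, 235 were lower for DNMT3A, 88 higher for N656I, 2 higher and 153 lower for K777A and 226 lower for N779A. Quasi-binomial regression called 92 lower for DNMT3A, 0 higher and 0 lower for N656I, 0 higher and 80 lower for K777A and 45 lower for N779A. With the 4 lines of the comparison alone, 26 were lower for N656I. The count of 1 higher for K777A was 0 with summed reads, without sites near a cut and without repeats (an alternative chosen after seeing the data), and 2 with 100 sites per class or all 4 WT lines. When 1 line was left out it was 0 to 1 (0 without WT set b replicate 2), and for the WT sets 0 to 10 were higher and 0 to 4 lower (10 and 4 without WT set a replicate 1). For these alternatives, the shares of all classes called are not given here. The causes were not tested.

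Of the 8 base effects, 6 were called for DNMT3A, 5 for N656I, 5 for K777A and 3 for N779A with at least 10 reads, and 0 to 1 between the WT sets when 1 line was left out. At least 10 reads also turned the effect of T at −2 in WT set b (0.0052, adjusted p = 0.875) and of G at −2 in K777A (−0.0073, adjusted p = 0.74). Without repeats, G at −3 (adjusted p = 0.75) and A at −3 (adjusted p = 0.067) were not called for N779A. Counting each TCGA base effect of a comparison once per alternative, 520 such values kept their direction and call, 23 lost and 9 gained the call, and 0 turned.

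The average deviation of mixed flanks changed sign for DNMT3A on the log2 odds scale (0.0261) and without repeats (0.17), for K777A with at least 10 reads (−0.35), summed reads (−0.0167) and without sites near a cut (−0.26), and for the WT sets with at least 5 (−0.45) and 10 reads (−0.31) and summed reads (−0.42). When 1 line was left out it ran from −0.17 to 0.14, −0.13 to 0.20 and −0.0615 to 0.27.

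The replicate numbers do not pair the lines. With the replicate number as a block, 134 TCGA classes were lower for DNMT3A, 53 higher and 45 lower for N656I, 1 higher and 98 lower for K777A, the counts for N779A did not change, and 7 of 8 base effects were called for N656I. Depth limits single sites: 12 TCGA sites had at least 10 reads in all 12 lines.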
